A study of Mus musculus with 16 samples.

Results

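The P2X and P2Y receptors are the cell surface receptors for extracellular nucleotides. Their members here were 10 genes, P2rx1, P2rx2, P2rx3, P2rx4, P2rx5, P2rx7, P2ry1, P2ry2, P2ry6 and P2ry14, of 26781 genes tested. A probe belonged to a member when its accession in the array files paired with that symbol in the reference table, which gave 14 probes. The samples were bladder bodies of C57BL/6 mice in 4 groups of 4, namely MAT males and MAT females of 12 months and AGED males and AGED females of 27 to 30 months, and no group carried a transgene or a drug treatment. Cyanine 3-labelled RNA of each sample was hybridised to its own Agilent array of 1 colour. The comparisons were AGED against MAT within each sex, which address how the receptors of the bladder change with age in males and in females. The labels number the samples 1 to 4 in each group and do not say whether each came from its own mouse, so p-values measure the spread between these samples, and the number of arrays limits their precision.

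In the bladder, ATP is released by parasympathetic nerves together with acetylcholine and by the urothelium when it is stretched. P2X receptors are cation channels that ATP opens, and P2X1 on detrusor smooth muscle carries the contraction that nerve-released ATP evokes, whereas P2X2 and P2X3 sit on sensory nerve endings that report filling. P2Y receptors are coupled to G proteins and respond to ATP, ADP, UTP, UDP or UDP-sugars, and ectoenzymes on the cell surface break the nucleotides down to adenosine.

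Levels are given as the log2 processed signal of a probe less the 75th percentile of its array, so that a level of 0 equals the signal of that percentile. A gene was called when limma gave a Benjamini-Hochberg adjusted p under 0.05 over all 26781 genes together with a change of at least 2-fold. All 10 genes had a probe that was well above background on all 16 arrays. Every age difference is that of the arrays labelled old (AGED) less those labelled young (MAT). For the genes that the study ranks first by change with age, and that had a kept probe, the arrays so labelled gave the opposite direction to the one the study gives, in both sexes. Which assignment is right was not settled here, and every direction with age below holds for the deposited labels only and would turn if the ages were exchanged. In AGED females P2rx2 was 2.50-fold lower than in MAT females, and this was the only call among the 10 genes (1 of 10 in females, 0 of 10 in males). Over all genes the percentage called was 0.851 in males and 0.19 in females. At an unadjusted p under 0.05 there were 1 of the 10 genes in males, against 16.2% of all genes, and 2 in females, against 10.5% of all genes. P2ry1 was 1.60-fold higher in AGED than in MAT males with an adjusted p under 0.05, below the 2-fold limit. The median log2 difference between AGED and MAT over the 10 genes was 0.15 in males, with 8 higher and 2 lower, and 0.14 in females, with 6 higher and 4 lower, beside medians of 0.00 and -0.01 over all genes.

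**Figure D1:**
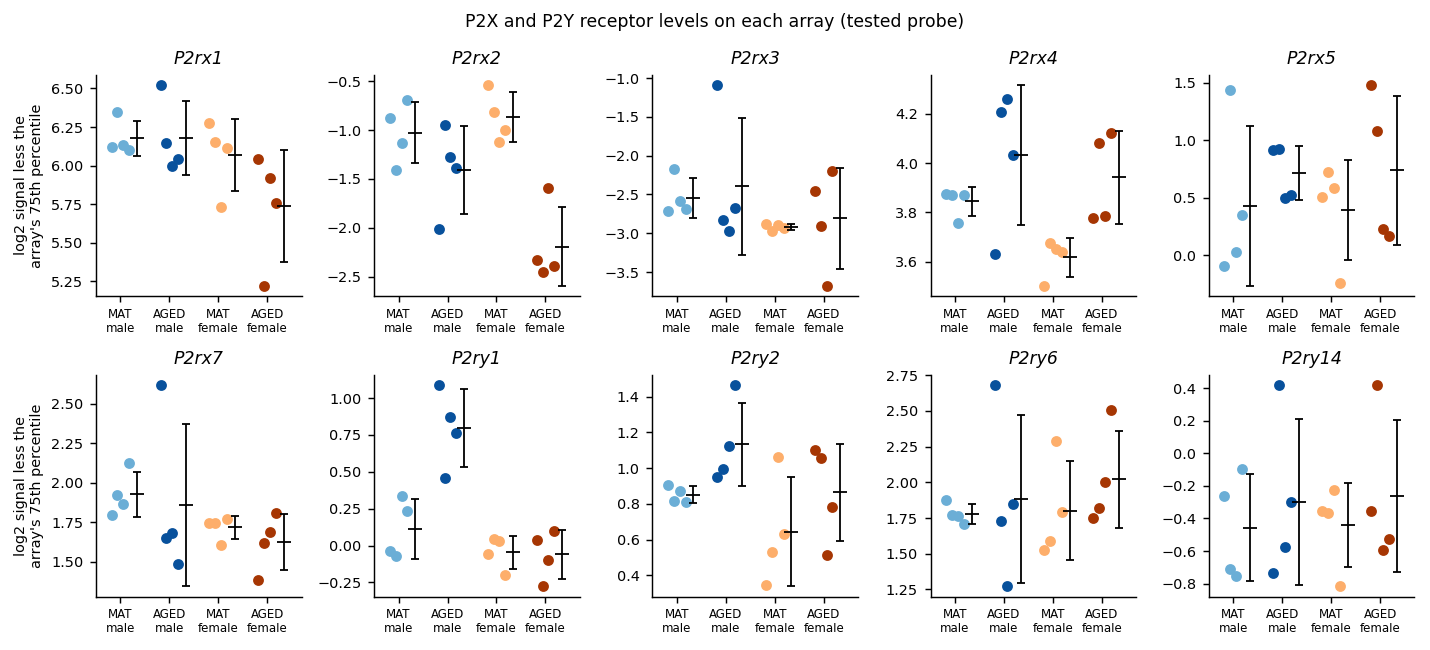
Level of each receptor on each array (log2 signal less the array's 75th percentile, each panel on its own axis) in MAT and AGED males and females, with the mean and SD of the 4 arrays beside the points. The AGED females lie below all MAT females for P2rx2, and the AGED males lie above all MAT males for P2ry1, while the groups overlap in most other panels.

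Some arrays stood apart, and the design ties position to group. The 75th percentile of AGED male 1 was 9.18 on the log2 scale against 9.90 or more in the other AGED males, with 52.3% of its probes well above background, and that of AGED female 3 was 10.82 against 9.83 to 10.19 in the other AGED females. Males and females were hybridised on separate slides, and within each slide the MAT samples were on row 1 and the AGED samples on row 2, so that sex and slide, and age and slide row, cannot be told apart. On both slides the column was the same as the sample number in the labels. Markers of the tissue were present, since all 10 smooth muscle genes and all 11 urothelial genes were measured on all 16 arrays and none was called in either sex, and 0 of 6 genes of the male accessory glands had a probe above the filter. Gapdh, the reference gene of the RT-PCR in the study, differed between AGED and MAT by -0.15 on the log2 scale in males (adjusted p = 0.648), and by -0.08 in females (adjusted p = 0.923). The RNA is that of the whole bladder body, in which fewer cells of a type and less RNA per cell cannot be told apart.

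P2rx2 encodes a channel subunit of sensory and autonomic neurons that joins with P2X3. Its tested probe (accession NM_153400) read -0.54, -0.82, -1.12 and -1.0 in MAT females 1 to 4. In AGED females 1 to 4 it read -2.33, -2.45, -1.59 and -2.39. Every AGED female was thus below every MAT female, and AGED female 3 was the nearest to them. The log2 difference in females was -1.32 (SE 0.24, 95% confidence interval -1.86 to -0.79, limma adjusted p = 0.0407, exact permutation p = 0.0286, the smallest that 4 against 4 can give).

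In males the same P2rx2 probe read -0.87, -1.41, -1.13 and -0.69 in the MAT samples. In AGED males 1 to 4 it read -2.01, -0.94, -1.27 and -1.39, so that the groups overlapped and AGED male 1 was the lowest. The log2 difference in males was -0.38 (SE 0.24, 95% confidence interval -0.91 to 0.16, adjusted p = 0.463), and without AGED male 1 it was -0.18. The age differences of P2rx2, less negative in males than in females, were 0.94 apart on the log2 scale (SE 0.35, 95% confidence interval 0.19 to 1.70), which did not pass adjustment over all genes (limma adjusted p = 0.355). A difference of P2rx2 between the sexes in its response to age was therefore not shown.

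The call of P2rx2 in females stood near its threshold. Over 33 alternative settings the log2 difference lay between -1.52 and -1.13, and its adjusted p lay between 0.00361 and 0.155, under 0.05 in 18 of them. The setting without a fold limit repeats the reported fit (limma adjusted p = 0.0407), so that its place among the 18 was fixed in advance. Settings of probe filter and probe choice likewise left the difference at -1.32, as P2rx2 has a single kept probe. There only the spread estimate and the adjustment, which draw on the other genes, could change. Leaving out 1 array at a time kept the adjusted p under 0.05 in 5 of 16 cases, and it was lost without MAT female 1, 2, 3 or 4, without AGED female 1, 2 or 4, and without MAT male 1, 3 or 4 or AGED male 4. Leaving out a male array does not move the female difference, and the value then stayed at -1.32 while the adjusted p ranged from 0.0103 to 0.0659. Without AGED female 3, the array with the high 75th percentile, the difference was -1.52 (adjusted p = 0.0411).

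The other P2rx2 probe, for the variant NM_001164834, was well above background on 1 of 16 arrays, MAT female 1. It was not kept, and no fold is given for it. The female change of P2rx2 therefore rests on a single probe.

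Nerve markers were read on the same arrays because P2rx2 is a neuronal gene. Of 13 neuron marker genes tested, 10 were lower in the AGED females and 3 higher, with a median log2 difference of -0.46, and none was called. Their levels were also summed out of log2, so that the brightest genes weigh most. The log2 of this summed level was 4.84 to 4.97 in MAT females and 4.25 to 4.77 in AGED females, again with no overlap. The median level of the 13 genes on each array did overlap, at -2.10 to -1.67 in MAT females and -2.25 to -1.87 in AGED females. All 13 were well above background on every female array, among them Slc18a3, the vesicular acetylcholine transporter. In males the log2 of the summed level was 4.99 to 5.07 in MAT and 4.16 to 4.93 in AGED samples, also with no overlap. There 4 neuron marker genes were higher and 9 lower, and 1 was called lower, Stmn2, a growth cone protein of neurons. Without AGED male 1, or without MAT male 1, 8 of these genes were higher and 5 lower in males. Of 10 Schwann cell genes, 2 were higher and 8 lower in AGED females, with a median log2 difference of -0.47 and none called. The log2 of their summed level overlapped, at 5.18 to 5.33 in MAT females and 5.05 to 5.40 in AGED females. Adipocyte markers were read as well. Of 7 tested, 1 was higher and 6 were lower in AGED females, with a median log2 difference of -1.12 and none called, and without MAT female 1 the median was -0.65. The log2 of their summed level was 6.13 to 7.34 in MAT females, the highest in MAT female 1. In AGED females it was 6.23 to 6.58, so that the groups overlapped. The part of nerve or fat content in the P2rx2 result was not tested.

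**Figure D2:**
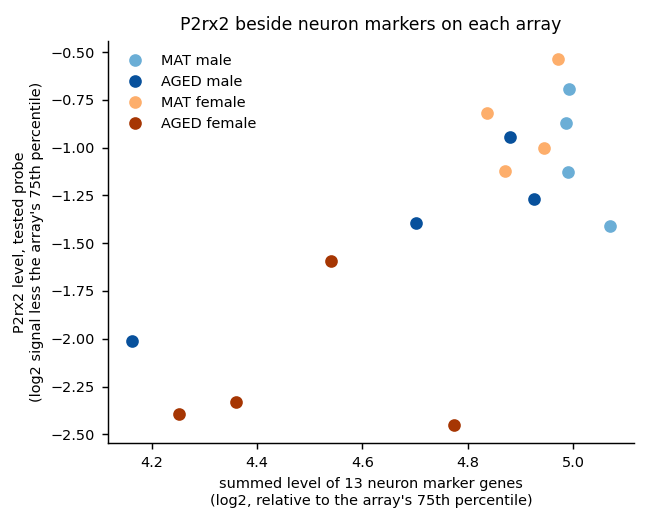
Level of P2rx2 (vertical axis, log2 signal less the array's 75th percentile) against the log2 of the summed level of 13 neuron marker genes (horizontal axis), 1 point per array. The AGED females lie below the MAT females on both axes, at 4.25 to 4.77 of summed marker level. Among them AGED female 2 has the lowest P2rx2 level, -2.45, and the highest summed level, 4.77. AGED male 1 has the lowest summed level of all arrays, 4.16.

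P2rx3 encodes the channel subunit of nociceptive sensory neurons that sets how the bladder signals filling, and both of its probes carry accession NM_145526. The tested probe read -2.72, -2.17, -2.59 and -2.69 in MAT males and -1.08, -2.83, -2.98 and -2.68 in AGED males. In MAT females it read -2.89, -2.97, -2.89 and -2.94, and in AGED females -2.46, -2.91, -3.68 and -2.19. AGED male 1 was the highest array of all, and the AGED groups spread far more widely than the MAT females. AGED and MAT differed on the log2 scale by 0.15 in males (SE 0.37, adjusted p = 0.869) and 0.11 in females (SE 0.37, adjusted p = 0.958), and the male value was -0.29 without AGED male 1.

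The other P2rx3 probe, printed as 10 spots, was dimmer and gave a narrower spread. In females it read -4.78, -4.77, -4.97 and -4.57 in MAT and -4.98, -5.03, -4.99 and -5.03 in AGED samples, so that every AGED female was below every MAT female by a small margin. The log2 difference was -0.24 in females (SE 0.17, adjusted p = 0.690 over 36972 probes, exact permutation p = 0.0286) and -0.11 in males (SE 0.17, adjusted p = 0.768). In AGED male 1 this probe was not well above background, and without that array the male value was 0.08. The 2 probes of P2rx3 thus gave differences of opposite sign in each sex, none past the threshold.

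P2rx1, the channel of the detrusor, read 6.12, 6.35, 6.13 and 6.10 in MAT males and 6.53, 6.15, 6.00 and 6.05 in AGED males. In MAT females it read 6.28, 6.15, 5.73 and 6.12, and in AGED females 6.04, 5.22, 5.92 and 5.76. The groups overlapped in both sexes, and AGED female 2 was the lowest array. On the log2 scale the difference was 0.00 in males (SE 0.18, 95% confidence interval -0.39 to 0.40, adjusted p = 0.995) and -0.33 in females (SE 0.18, 95% confidence interval -0.73 to 0.06, adjusted p = 0.554). Without AGED female 2 the female value was -0.16. The male value was slightly below 0 with quantile normalization, median scaling, the deposited log2 table and normexp background correction, and the 10 smooth muscle markers had median differences of 0.02 in both sexes. By RT-PCR the study reports significantly lower P2X1 expression in AGED than in MAT males. That measure was normalized to Gapdh and used more MAT males than the arrays, on which no such difference was seen.

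P2rx4, a channel of macrophages, endothelium and urothelium, read 3.50, 3.68, 3.65 and 3.64 in MAT females and 3.78, 4.08, 3.78 and 4.12 in AGED females. Every AGED female was above every MAT female. The difference between AGED and MAT (log2) was 0.32 (SE 0.14, 95% confidence interval 0.02 to 0.63), and it did not pass adjustment (limma adjusted p = 0.429, exact permutation p = 0.0286). In males P2rx4 read 3.88, 3.87, 3.76 and 3.87 in MAT and 3.63, 4.21, 4.26 and 4.03 in AGED samples, with AGED male 1 the lowest array of both groups. The male difference was 0.19 (SE 0.14, adjusted p = 0.521), and it was 0.32 without AGED male 1 (adjusted p = 0.161) and -0.08 with normexp background correction, the setting that moved the median of all genes in males to 0.12.

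P2rx7 encodes the channel that high ATP opens on macrophages and other immune cells and that leads to release of interleukin-1. It had 3 probes, each for its own transcript accession, and all 3 were well above background on 16 of 16 arrays. The tested probe (NM_011027) read 1.80, 1.93, 1.87 and 2.13 in MAT males and 2.62, 1.65, 1.68 and 1.48 in AGED males. In females it read 1.75, 1.75, 1.61 and 1.77 in MAT and 1.39, 1.62, 1.69 and 1.81 in AGED samples. AGED male 1 stood above every other array, and the other AGED males were below every MAT male. AGED and MAT differed on the log2 scale by -0.07 in males (SE 0.20, adjusted p = 0.888) and -0.09 in females (SE 0.20, adjusted p = 0.929), and the male value was -0.32 without AGED male 1 (adjusted p = 0.183).

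The probe for the P2rx7 variant NM_001038887 read 0.24, -0.17, 0.00 and 1.09 in MAT males and 1.37, 0.53, 0.68 and 0.48 in AGED males. Its log2 difference was 0.48 in males (SE 0.25, adjusted p = 0.370) and -0.02 in females (SE 0.25, adjusted p = 0.993). MAT male 4 lay among the AGED males, and the groups overlapped. The probe for NM_001038845 had differences of -0.06 in males (SE 0.25, adjusted p = 0.929) and 0.04 in females (SE 0.25, adjusted p = 0.982), and its AGED males fell into a pair at -1.42 and -1.37 and a pair at -2.65 and -2.55. The probes of P2rx7 thus differed in sign in both sexes, and no difference passed the threshold.

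**Figure D3:**
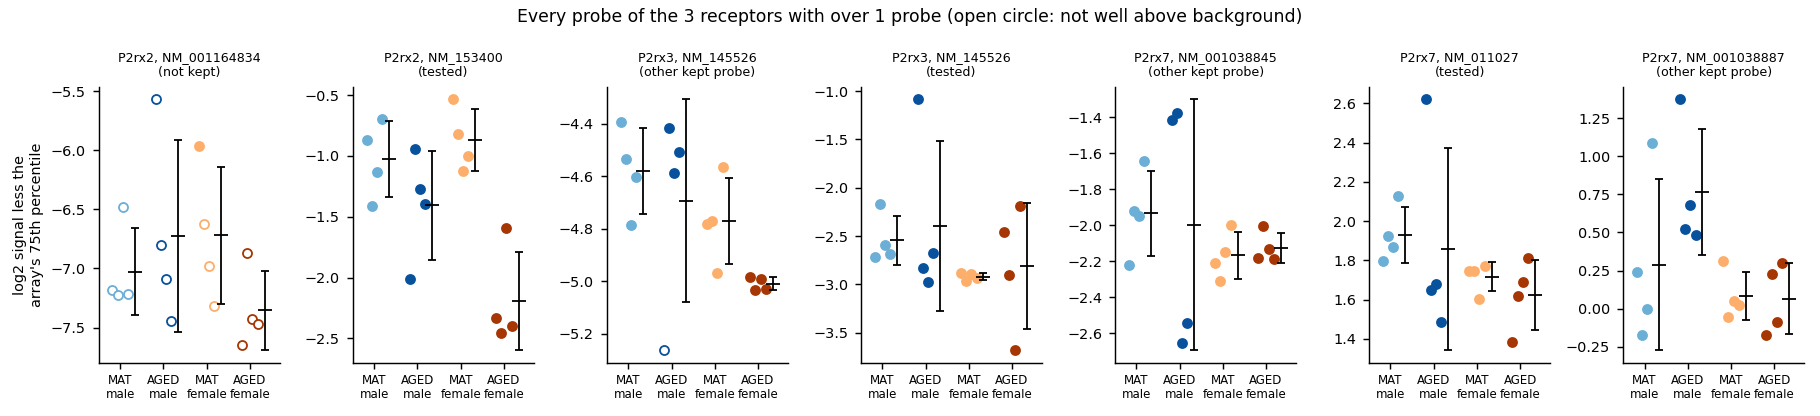
Level on each array (log2 signal less the array's 75th percentile, each panel on its own axis) of every probe of P2rx2, P2rx3 and P2rx7, the receptors with over 1 probe, with the mean and SD of 4 arrays per group. Open circles are arrays on which the probe was not well above background, which holds for 15 of 16 arrays of the P2rx2 variant NM_001164834 and for AGED male 1 of the dimmer P2rx3 probe.

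P2rx5, a P2X subunit that forms weakly conducting channels on its own, was the most scattered member within MAT males, at -0.10, 1.44, 0.03 and 0.35, against 0.92, 0.92, 0.50 and 0.52 in AGED males. In females it read 0.50, 0.73, 0.59 and -0.24 in MAT and 1.48, 1.08, 0.23 and 0.16 in AGED samples. The groups overlapped in both sexes. The log2 difference was 0.28 in males (SE 0.35, adjusted p = 0.717) and 0.35 in females (SE 0.35, adjusted p = 0.804), with intervals that reached from -0.48 to 1.05 and from -0.42 to 1.11, so that a 2-fold rise in either sex lay within the interval. The male value was 0.11 without MAT male 1, 0.62 without MAT male 2 and 0.15 without MAT male 3. The female value was 0.097 without AGED female 1, 0.54 without AGED female 4 and 0.13 without MAT female 4, none of them past the threshold.

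Among the P2Y receptors, P2ry1 encodes the ADP receptor of platelets, endothelium and smooth muscle, which couples to the calcium-releasing G protein. It read -0.04, -0.07, 0.34 and 0.23 in MAT males 1 to 4. In AGED males 1 to 4 it read 1.09, 0.46, 0.87 and 0.76. Every AGED male was above every MAT male. On the log2 scale the difference was 0.68 (SE 0.15, 95% confidence interval 0.36 to 1.00, limma adjusted p = 0.0306, exact permutation p = 0.0286), which is 1.60-fold.

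In females P2ry1 read -0.06, 0.04, 0.03 and -0.20 in MAT and 0.04, -0.28, -0.10 and 0.10 in AGED samples, and the log2 difference was -0.02 (SE 0.15, 95% confidence interval -0.34 to 0.31, adjusted p = 0.986). The age changes of P2ry1 in males and in females differed by 0.70 on the log2 scale (SE 0.21, 95% confidence interval 0.24 to 1.15), and the limma adjusted p of this difference over all genes was 0.244. AGED males were above AGED females by 0.86 (SE 0.15, adjusted p = 0.00419), 1.81-fold and so below the 2-fold limit, whereas MAT males and MAT females differed by 0.16 (SE 0.15, adjusted p = 0.671).

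The male difference of P2ry1 had an adjusted p under 0.05 in 26 of 33 alternative settings, over a range of 0.0112 to 0.325, and lay between 0.46 and 0.79. Here too the setting without a fold limit repeats the reported fit (limma adjusted p = 0.0306) and is counted among the 26. Settings of probe filter and probe choice left the male difference at 0.68, as P2ry1 has a single probe. Leaving out a female array left it at 0.68 as well. In these only the spread estimate and the adjustment could change, so they do not test the size of the difference. Without AGED male 1 the difference was 0.58 (adjusted p = 0.0467). The adjusted p rose above 0.05 without MAT male 1 (0.0905), MAT male 2 (0.0866) or AGED male 3 (0.0612), and with normexp background correction (0.153), array weights (0.109), males fitted alone (0.258) and the methods' t-test (0.325). Beside it, all 8 T cell genes were higher in AGED males, with a median log2 difference of 0.90, none called. AGED male 1 carried most of this. The log2 of the summed T cell level was 4.68 there, against 2.20 to 2.85 in the other AGED males and 2.11 to 2.61 in MAT males. Without that array 7 T cell genes were higher and 1 lower, with a median of 0.19. Of 7 endothelial genes, 2 were higher and 5 lower in AGED males, with a median of -0.06 and none called. Among the other lists of blood and stromal cells (B cell, neutrophil, mast cell, fibroblast, adipocyte and skeletal muscle), the genes called were S100a8 and S100a9. Both are of the neutrophil list and were higher in the arrays labelled AGED males. Of 5 neutrophil genes tested, 3 were higher and 2 lower in AGED males, with a median log2 difference of 1.38. In AGED females 5 were higher and 0 lower, with a median of 1.29. No gene of these lists was called in females. The part of cell content in the P2ry1 result was not tested.

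**Figure D4:**
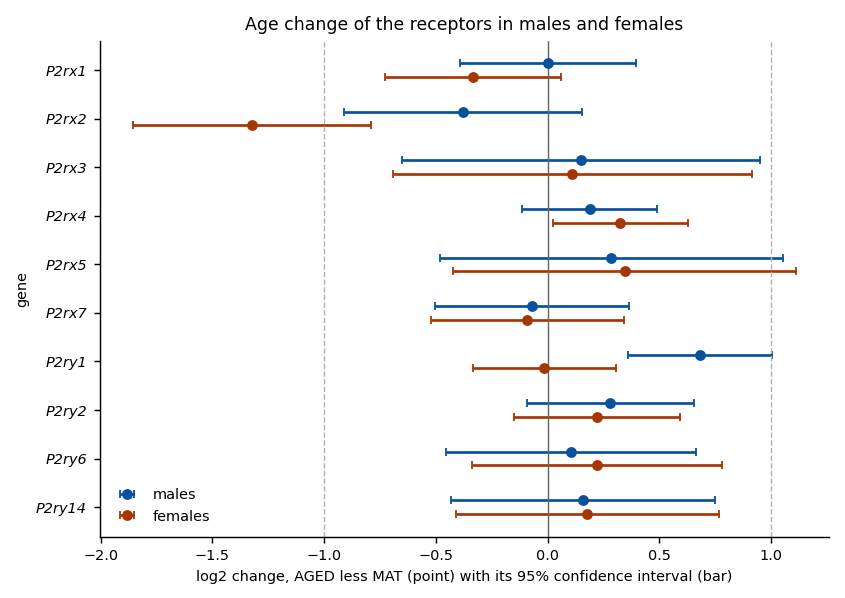
Log2 difference between AGED and MAT (horizontal axis) for each receptor in males and in females, as a point with its 95% confidence interval. The interval uses the limma standard error and the 12 residual degrees of freedom, and the dashed lines mark a 2-fold change. The intervals of P2rx2 in females, P2rx4 in females and P2ry1 in males leave out 0, and all others span it.

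P2ry2, the receptor for UTP and ATP on epithelium, read 0.91, 0.81, 0.87 and 0.81 in MAT males and 0.95, 0.99, 1.12 and 1.47 in AGED males. Every AGED male was above every MAT male. The difference between AGED and MAT (log2) was 0.28 (SE 0.17, 95% confidence interval -0.09 to 0.65, limma adjusted p = 0.432, exact permutation p = 0.0286). With median scaling or with normexp background correction the male groups overlapped. In females P2ry2 read 0.35, 0.53, 1.06 and 0.63 in MAT and 1.10, 1.06, 0.51 and 0.79 in AGED samples, a difference of 0.22 (SE 0.17, adjusted p = 0.716).

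P2ry6, the UDP receptor of macrophages, was printed as 10 spots. It read 1.87, 1.77, 1.76 and 1.71 in MAT males and 2.68, 1.73, 1.27 and 1.85 in AGED males, with AGED male 1 the highest and AGED male 3 the lowest of all arrays. In females it read 1.53, 1.59, 2.29 and 1.79 in MAT and 1.75, 1.82, 2.0 and 2.50 in AGED samples. The groups overlapped in both sexes. AGED and MAT differed on the log2 scale by 0.10 in males (SE 0.26, adjusted p = 0.869) and 0.22 in females (SE 0.26, adjusted p = 0.835), and the male value was -0.16 without AGED male 1. Of 9 macrophage marker genes tested, 5 were higher and 4 lower in AGED males and 7 were higher and 2 lower in AGED females, with median log2 differences of 0.36 and 0.37 and none called. Without AGED male 1 the macrophage median in males was -0.0058, with 4 genes higher and 5 lower, and without AGED female 4 that in females was 0.18, with 7 higher and 2 lower.

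P2ry14, the receptor for UDP-glucose, which couples to the inhibitory G protein, read -0.26, -0.71, -0.75 and -0.10 in MAT males and -0.74, 0.42, -0.57 and -0.30 in AGED males. In females it read -0.36, -0.37, -0.22 and -0.82 in MAT and -0.35, 0.42, -0.59 and -0.53 in AGED samples. AGED male 2 and AGED female 2 were the highest of their sex, and the groups overlapped. The log2 difference was 0.16 in males (SE 0.27, adjusted p = 0.803) and 0.18 in females (SE 0.27, adjusted p = 0.888).

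Counted by groups that do not overlap, 2 of the 10 genes separated AGED from MAT males, P2ry1 and P2ry2, both higher in AGED, and over all genes the percentage that did so was 7.82. With median scaling P2ry1 was the only one of the 10 to separate the male groups, and with normexp background correction 0 of the 10 did, P2ry1 included. In females 2 of the 10 did, P2rx4, higher, and P2rx2, lower in AGED, and over all genes the percentage was 10.8. With the 13 kept probes tested one by one, 0 were called in males, beside a percentage of 0.79 over all probes, and 1 in females, the P2rx2 probe, beside 0.173. No member was called for a difference of the age changes between the sexes (percentage over all genes 0.149; 2 of the 10, P2rx2 and P2ry1, at an unadjusted p under 0.05, against 9.87% of all genes).

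Between the sexes, 0 of the 10 genes were called in MAT samples (percentage over all genes 0.164, and at an unadjusted p under 0.05 there were 0 of the 10 against 3748 of all 26781 genes) and 0 of the 10 in AGED samples (percentage over all genes 3.11). In AGED samples 3 of the 10, all higher in males, had an unadjusted p under 0.05, against 26.2% of all genes. These were P2ry1, given above, P2rx2 with a log2 difference of 0.79 (SE 0.24, adjusted p = 0.0564) and P2rx1 with 0.44 (SE 0.18, adjusted p = 0.136). In each of these comparisons sex and slide cannot be told apart.

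The upstream sequence is shown for the 3 members whose AGED and MAT arrays did not overlap in a sex and that have an entry in the RefSeq promoter table (GRCm38.p6), as the stretch of 250 bases that ends at the annotated start. They are P2ry1 and P2ry2, higher in AGED males on every array, and P2rx4, higher in AGED females on every array. Of the 10 members, 6 matched an entry, and P2rx2, P2rx3, P2rx5 and P2ry6 are named only. Capitals mark the GC box GGGCGG on either strand, which reads CCGCCC on the other. The table lists more than 1 start for P2ry2, and its first entry is shown. For P2rx4 the stretch ends slightly inside the gene as placed by the RefSeq table that named the probes.
P2ry1, chr3:61002535-61002784: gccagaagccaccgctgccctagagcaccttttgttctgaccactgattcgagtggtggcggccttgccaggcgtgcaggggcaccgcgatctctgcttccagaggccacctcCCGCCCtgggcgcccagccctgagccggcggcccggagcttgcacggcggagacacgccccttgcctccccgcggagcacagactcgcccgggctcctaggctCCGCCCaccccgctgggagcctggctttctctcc
P2ry2, chr7:101012054-101012303: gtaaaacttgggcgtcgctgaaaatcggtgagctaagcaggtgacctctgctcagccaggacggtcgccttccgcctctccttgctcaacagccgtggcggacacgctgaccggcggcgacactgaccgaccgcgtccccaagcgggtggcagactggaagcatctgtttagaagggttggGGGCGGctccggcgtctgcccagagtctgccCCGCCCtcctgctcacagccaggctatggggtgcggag
P2rx4, chr5:122707294-122707543: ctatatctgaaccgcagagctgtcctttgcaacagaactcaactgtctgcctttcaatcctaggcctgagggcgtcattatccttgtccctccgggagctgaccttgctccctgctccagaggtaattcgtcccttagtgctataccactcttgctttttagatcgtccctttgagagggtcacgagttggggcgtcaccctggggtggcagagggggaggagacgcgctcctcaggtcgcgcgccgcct
The P2ry1 stretch lies on the plus strand, that of P2ry2 on the minus strand and that of P2rx4 on the plus strand, each printed 5′ to 3′.

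The P2ry1 stretch held 2 GC boxes, starting 137 and 34 bases before the start, and that of P2ry2 held 2, starting 69 and 38 bases before it. The other entry of P2ry2, not shown, held 4, starting 124, 93, 53 and 43 bases before its own start. The P2rx4 stretch held no GC box on either strand. Among the members with an entry that are not shown, the first entry of P2rx7 also held 2, starting 90 and 11 bases before its start. Its other entry and those of P2rx1 and P2ry14 held no GC box. Neither the TATA motif TATAAA nor the motif of NF-Y, spelled CCAAT, was found on either strand of the stretches shown. Of 32851 upstream stretches of the same length in the table, 32.7% held the GC box, 12.4% the TATA motif and 33.8% the NF-Y motif on either strand. The share of G and C was 70.8% in the P2ry1 stretch, 65.2% in that of P2ry2 and 57.2% in that of P2rx4, against a median of 52.4% over all stretches. P2rx4 and P2rx7 are neighbours with no protein-coding gene between them in that annotation, as are P2ry6 and P2ry2. In males the tested probes of the neighbours P2rx4 and P2rx7 had differences of 0.19 and -0.07. Without AGED male 1 these were 0.32 and -0.32, neither past the threshold. The other P2rx7 probes gave 0.27 and -0.26 without that array, so that the sign of P2rx7 beside P2rx4 depended on the probe.

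The rest of the nucleotide pathway was followed in a list of 33 genes, of which 29 had a kept probe. None was called in either sex. In males 14 were lower with age and 15 higher, with a median log2 difference of 0.02, and in females 18 were lower and 11 higher, with a median of -0.06. The remaining P2 receptors with a kept probe numbered 5. Of these P2rx6, a P2X subunit that rarely forms channels alone, had a difference of -0.73 in females (adjusted p = 0.556) and 0.28 in males (adjusted p = 0.762), and P2ry10, a receptor for lysophospholipids, had -0.48 in males (adjusted p = 0.562) against 0.03 in females (adjusted p = 0.990). P2ry4 and Gpr17 had no kept probe.

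Of the 9 genes of nucleotide hydrolysis, 4 were higher and 5 lower in AGED males and 5 were higher and 4 lower in AGED females. Entpd1, the ectoenzyme CD39 that takes ATP and ADP to AMP, had a log2 difference of -0.71 in males (adjusted p = 0.139) against 0.07 in females (adjusted p = 0.959). Enpp1, which takes ATP to AMP, had 0.46 in males (adjusted p = 0.252) against 0.04 in females (adjusted p = 0.972). Of the 4 genes of ATP release, Slc17a9, the vesicular nucleotide transporter, had 0.55 in males (adjusted p = 0.152) against -0.16 in females (adjusted p = 0.826), and Calhm2, a large-pore channel family member, had -0.19 in males (adjusted p = 0.639) against -0.38 in females (adjusted p = 0.497).

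Downstream of the ectoenzymes, 4 adenosine receptor genes and 7 genes of adenosine handling were tested. Ada, the adenosine deaminase, was the only gene of the list with an adjusted p under 0.05. Its log2 difference was -0.77 in males (SE 0.15, adjusted p = 0.0194), below the 2-fold limit, and -0.02 in females (adjusted p = 0.982). Slc28a2, a concentrative nucleoside transporter, had 0.68 in females (adjusted p = 0.687) and 0.39 in males (adjusted p = 0.723). Among the adenosine receptors, Adora2a had -0.49 in females (adjusted p = 0.724) and 0.12 in males (adjusted p = 0.903), and Adora1 had -0.31 in females (adjusted p = 0.657) and 0.26 in males (adjusted p = 0.566).

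The genes whose pattern over the 16 arrays was most like that of each member were found by Pearson correlation among 13389 named genes well above background on all 16 arrays. These values are descriptions over arrays that share slides and groups. For P2rx2 they were Marchf1 (r = 0.89), Ybx2 (0.88) and Slc40a1 (0.87), and for P2ry1 Sh3bp5l (0.96), Pcbp2 (0.92) and Ovol2 (0.91). Computed on deviations from the group means these fell to 0.75, 0.70 and 0.84 for P2rx2 and to 0.82, 0.54 and 0.66 for P2ry1.

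P2ry6 was most like Myo1f (0.92), a myosin of leukocytes, Irgm2 (0.89) and Cysltr1 (0.88), a leukotriene receptor of leukocytes. P2rx3 was most like Sema4c (0.97), Plekhg3 (0.96) and Luc7l2 (0.96), with 0.92, 0.91 and 0.91 once AGED male 1 was left out. For P2rx7 the values for Gnpda1, Slc12a9 and Fut10 were 0.89, 0.87 and 0.87 and fell to 0.68, 0.64 and 0.61 without AGED male 1. For the other members the highest values were 0.90 for P2rx1 (Gm10638), 0.90 for P2rx4 (Mtbp), 0.84 for P2rx5 (Itga3), 0.86 for P2ry2 (BC048403) and 0.81 for P2ry14 (Plekho2).

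**Figure D5:**
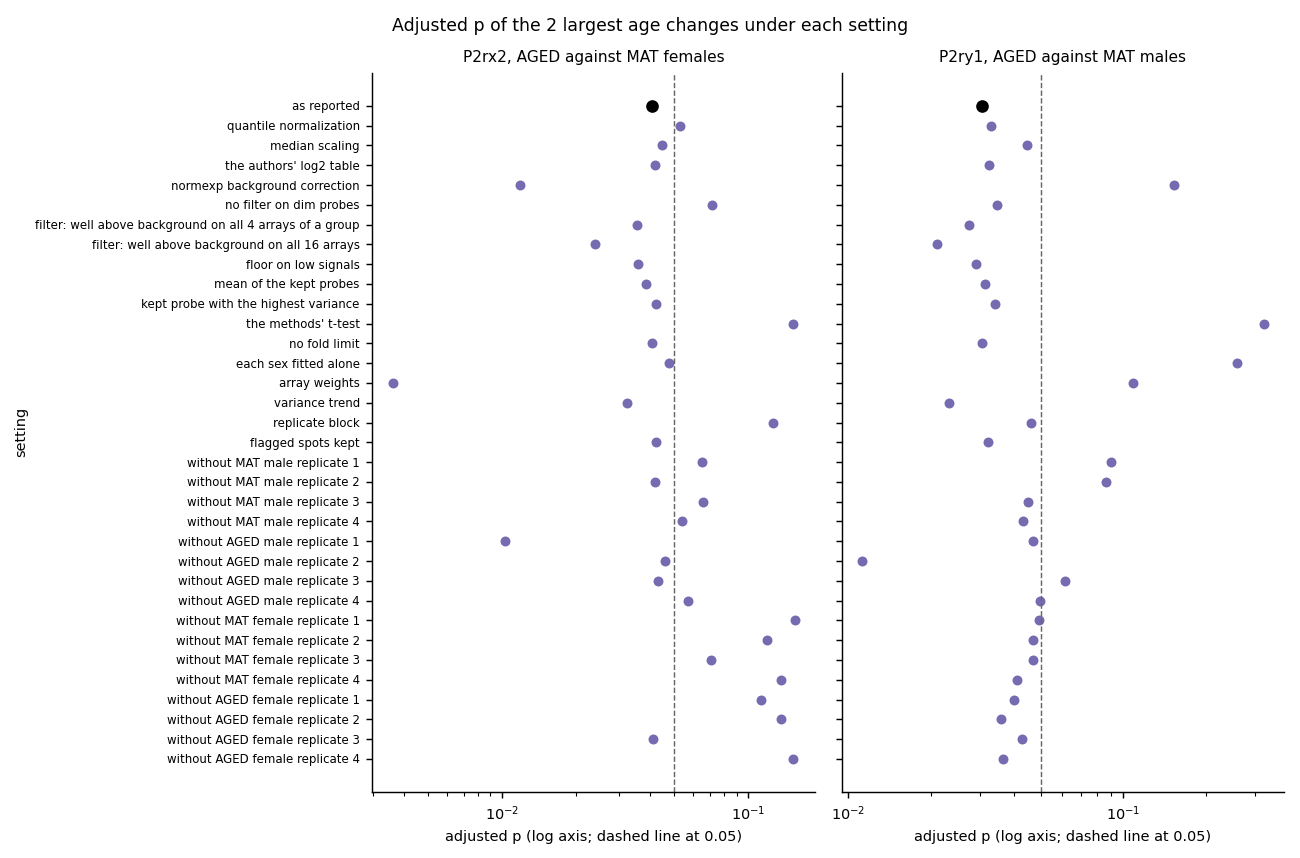
Adjusted p (log axis, dashed line at 0.05) of P2rx2 in females and P2ry1 in males, the receptors with an age change at an adjusted p under 0.05, as reported and under 33 alternative settings, including each array left out in turn. For P2rx2 18 of the alternatives and for P2ry1 26 of them lie left of the line, each count with the setting without a fold limit, which repeats the reported fit. Settings of probe filter and probe choice, and arrays of the other sex left out, did not move the difference itself.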

How the data were processed

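RNA of the bladder body was labelled with cyanine 3 and hybridised to Agilent SurePrint G3 mouse arrays. The authors extracted the scans with Feature Extraction (10.7.3.1 per the file headers, 9.1 in the submitters' processing notes) and deposited the processed signal of every spot as an intensity, the median spot and background intensity, and flags for outliers, saturation and signal well above background. A series table of log2 values, also deposited by the authors, matched the scaled scanner values after centring on each probe.

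Here log2 of the processed signal less the 75th percentile of each array was used. Control and outlier-flagged spots were left out, and spots of a probe were averaged. Probes (55681) were named by accession through a RefSeq table (26582 named), whose build differs from that of the arrays. Its gene positions are not printed, and the positions printed for the upstream stretches are those of the promoter table. Probes that exceeded background clearly on 4 or more of the 16 arrays were kept (36972). A gene with several kept probes was represented by its brightest probe on average, and every member probe was also tested alone. No spot was saturated. With intensities alone, signal over background sets what can be measured.

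Groups, and so every direction, came from the sample labels. limma 3.58.1 in R 4.3.3 fitted a mean per group to the 16 arrays in a single model with 12 residual degrees of freedom, with Benjamini-Hochberg adjustment over 26781 genes. Exact permutation tests were two-sided. Same-numbered samples did not deviate together (correlations -0.15 to 0.07), so no replicate block was used. The scripts were tested on simulated data. Alternatives covered scaling, background correction, probe filter and choice, the methods' t-test, array weights, variance trend, the block and each array left out in turn. The members and lists were chosen with earlier results of these data known. Named were all members and probes, Gapdh, of the pathway list the called genes and otherwise the 2 per group with the largest change, called markers, and the 3 genes most like each member over the arrays.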

Additional observations from a re-analysis of the deposited data

Results flagged for a closer look

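In 6 of the 56 sets of 4 arrays (14 probes in 4 groups), 1 array lay far from the other three, by Dixon's 95% limit on the gap to its neighbour as a share of the range of the group, and chance alone gives about 1 in 20. The share of the range was 0.858 for P2rx2 in AGED female 3, the array nearest to the MAT females, and 0.843 for P2rx3 in AGED male 1. It was 0.866 for P2rx1 in MAT male 2, 0.959 for P2rx4 in MAT male 3 and 0.855 for P2rx7 in MAT female 3, where the whole range was small. It was 0.946 for the P2rx2 variant NM_001164834 in MAT male 3, a probe not well above background there. The 75th percentile of AGED male 1 was itself apart from the other AGED males, with a share of 0.877.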

How the results depend on the processing

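The count of receptors called in females was 1, and it was 0 with quantile normalization, with no filter on dim probes, with the methods' t-test after adjustment and with the replicate block, and 0 to 1 with an array left out. For P2rx2 in females the adjusted p in these was 0.0531, 0.0716, 0.152 and 0.126. Tested probe by probe the count in females was 0 with quantile normalization and with no filter, and 0 to 1 with an array left out. The labels do not pair the samples by number, but same-numbered samples shared a slide column. The replicate block is thus also a block of slide column, and it changed no other member call. With no fold limit 1 receptor, P2ry1, passed in males, against 1.72% of all genes, and 1, P2ry1, between the sexes in AGED samples, against 9.51%. Array weights gave 1 between the sexes in AGED samples (P2rx2), against 2.74%, and normexp background correction 1 for the difference of the age changes (P2rx2), against 1.74%. The causes were not tested.

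Small differences took the other sign, none of them past the threshold. In males normexp gave -0.083 for P2rx1, -0.079 for P2rx4, 0.042 for P2rx7, -0.067 for P2ry14, 0.21 for the dimmer P2rx3 probe and -0.24 for the P2rx7 variant NM_001038887. In females it gave 0.0048 for P2ry1 and -0.078 for NM_001038845. P2rx1 in males was -0.053 with quantile normalization, -0.060 with median scaling, -0.0012 in the deposited table and -0.027 with array weights. Array weights gave -0.093 for P2rx3 and -0.071 for P2ry6 in males, and keeping flagged spots gave -0.033 for P2ry6. The mean of the kept probes gave 0.11 for P2rx7 in males and -0.063 for P2rx3 in females, and the kept probe with the highest variance 0.48 for P2rx7 in males.

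With 1 array left out, the ranges in males were -0.11 to 0.062 for P2rx1, -0.29 to 0.34 for P2rx3, -0.32 to 0.055 for P2rx7, -0.16 to 0.31 for P2ry6, -0.081 to 0.30 for P2ry14, -0.21 to 0.076 for the dimmer P2rx3 probe and -0.27 to 0.16 for NM_001038845. In females they were -0.094 to 0.40 for P2rx3, -0.067 to 0.057 for P2ry1, -0.050 to 0.29 for P2ry14, -0.0081 to 0.095 for NM_001038845 and -0.096 to 0.061 for NM_001038887. Leaving arrays out of the marker lists was chosen after seeing the data.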
